A study of Mus musculus with 9 samples.

Results

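The 6 genes described here, Mcam, Pdgfrb, Pdgfra, Cspg4, Des and Thy1, are markers of mesangial cells and pericytes, and they were read in cultured mouse podocytes, the epithelial cells of the glomerular filter and the only cell type the labels name. They were taken by name from 22180 genes, each represented by the probe set that carried its symbol alone and had the highest mean over all 9 arrays. All 6 were measured, each by 1 such probe set. A further probe set annotated to Des together with another gene was not used.

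RNA came from 9 single-colour arrays, with 3 arrays for each of 3 groups. The cells had differentiated for 11 days at 37 °C and were then treated for 16 hours with thapsigargin (2.5 µM) plus forskolin (10 µM) or with thapsigargin alone (2.5 µM), and control cells had the vehicle DMSO. Thapsigargin is an inhibitor of SERCA, the calcium pump of the endoplasmic reticulum, and causes stress there, while forskolin raises cAMP by switching on adenylyl cyclase. There was no group given forskolin alone, so a forskolin effect was read only in the presence of thapsigargin. The replicates are labelled biological, but what separated them is not stated, and p-values therefore measure only the spread between these arrays. Values are log2 RMA values throughout, differences are log2 differences with limma standard errors (SE), and a gene was called where the limma p, adjusted by the Benjamini-Hochberg method over all 22180 genes, lay below 0.05.

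Mesangial cells and pericytes are contractile mural cells that hold the capillaries of the glomerulus and of other vessels, and both depend on platelet-derived growth factor (PDGF). PDGF-B from endothelial cells binds the receptor kinase PDGFR-beta on the mural cell and thereby recruits it to the vessel. The other markers of the set sit at the cell surface (the adhesion molecule MCAM, the proteoglycan NG2, the GPI-anchored protein THY1) or in the cytoskeleton (the intermediate filament protein desmin). None is exclusive to these cells: MCAM is also made by endothelium, PDGFR-alpha and THY1 by fibroblasts, and desmin is a classical sign of injury in rat podocytes.

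Of the 6 markers, Mcam and Pdgfrb passed the test in every comparison and the other 4 in none. Mcam was lower with thapsigargin alone and 5.96-fold higher when forskolin was added. Pdgfrb was lower with thapsigargin, at 0.426 times its DMSO level, and 1.30-fold higher with forskolin added than with thapsigargin alone. Against DMSO, 0 of the 6 genes were called higher and 2 called lower in thapsigargin cells, where 18.2% of all genes were called higher and 16.9% lower. With forskolin added, 2 were called higher and 0 lower than with thapsigargin alone, where 3.7% and 4.17% of all genes were. In thapsigargin plus forskolin cells 1 was called higher and 1 lower than in DMSO cells, beside 17.9% and 16.7% of all genes. In either direction 2 of the 6 were called in each comparison, against 35% of all genes for thapsigargin against DMSO, 7.87% for thapsigargin plus forskolin against thapsigargin and 34.5% for thapsigargin plus forskolin against DMSO. At an unadjusted limma p below 0.05 it was the same 2 genes in each comparison. How many of all genes passed that unadjusted threshold was not counted. The share of members called against DMSO was thus close to that of all genes. Any 2 of these comparisons have 1 group of arrays in common, so their values are given side by side and not as independent evidence of each other.

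**Figure D1:**
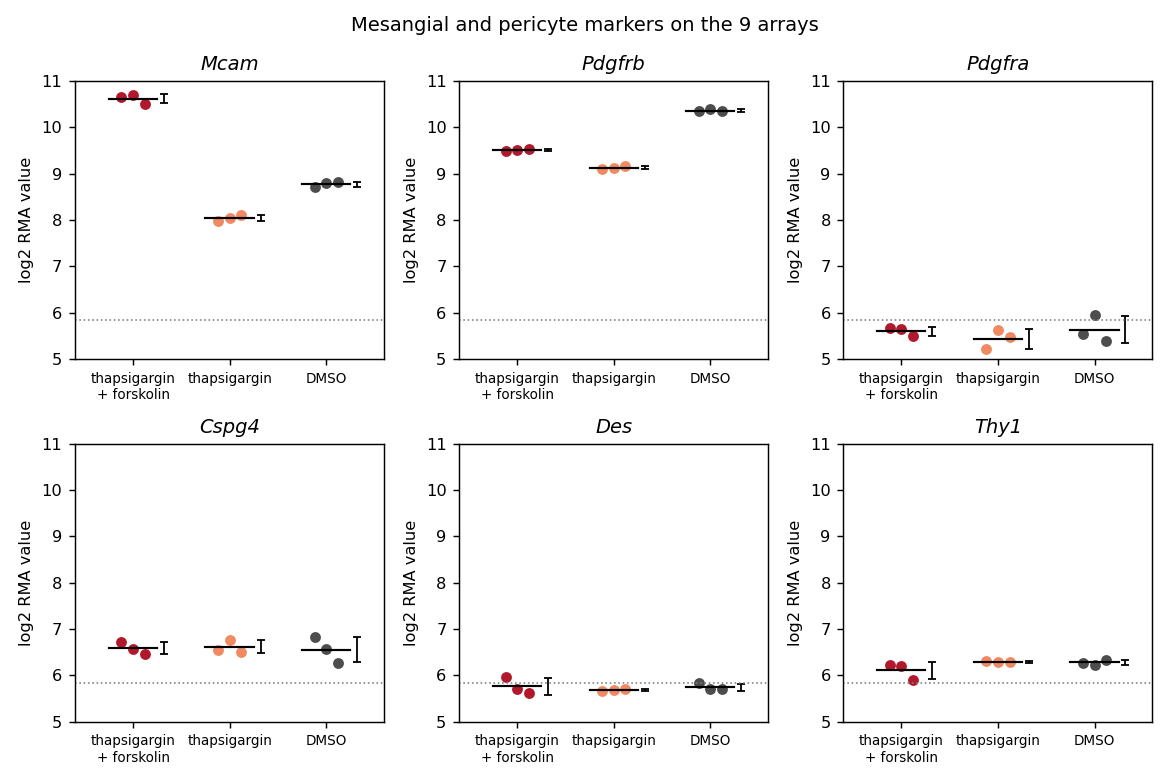
Log2 RMA values (vertical axis, the same scale in all panels) of the 6 markers on each of the 9 arrays, by group; points are arrays, horizontal bars group means and vertical bars SD (n = 3), and the dotted line is the mean of the array medians over all probe sets. The 3 groups of Mcam and of Pdgfrb lie apart, while the points of Pdgfra, Cspg4 and Des overlap.

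MCAM (CD146) is a cell adhesion molecule of the immunoglobulin superfamily found on pericytes, smooth muscle and endothelium. Mcam had log2 values of 10.65, 10.69 and 10.51 on the thapsigargin plus forskolin arrays, 7.98, 8.04 and 8.11 on the thapsigargin arrays, and 8.70, 8.80 and 8.81 on the DMSO arrays. The groups did not overlap, thapsigargin plus forskolin being highest and thapsigargin alone lowest. Groups without overlap were common over all genes, at 43.9% for thapsigargin against DMSO, 26.1% for thapsigargin plus forskolin against thapsigargin and 42.6% for thapsigargin plus forskolin against DMSO. The value lay above the upper quartile of all probe sets on all 9 arrays. Thapsigargin cells differed from DMSO cells by -0.73 ± 0.07 (limma adjusted p = 1.62e-05). Adding forskolin raised the gene by 2.58 ± 0.07 over thapsigargin alone (limma adjusted p = 9.61e-08), a rise that ranked 5 among 22180 genes. In thapsigargin plus forskolin cells Mcam was 3.60-fold higher than in DMSO cells (log2 difference 1.85 ± 0.07, limma adjusted p = 4.69e-08). The order lower with thapsigargin alone, then higher in the combined group than in both other groups, with all 3 comparisons called, was shared by 50 genes, 0.225% of those tested. For a single gene an exact two-sided permutation test of 3 against 3 arrays cannot give a p below 0.1, and it gave 0.1 for Mcam in each comparison.

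The promoter of Mcam is shown because Mcam was the marker most raised by forskolin, and cAMP is known to act on many promoters through the cAMP response element (CRE), the palindrome TGACGTCA bound by factors of the CREB and ATF families. The window runs from 250 bases before to 50 bases after the gene's start, at chr9:44134408-44134707 on the plus strand of GRCm38.p6 (RefSeq), and the capitals mark the CRE.
Mcam promoter: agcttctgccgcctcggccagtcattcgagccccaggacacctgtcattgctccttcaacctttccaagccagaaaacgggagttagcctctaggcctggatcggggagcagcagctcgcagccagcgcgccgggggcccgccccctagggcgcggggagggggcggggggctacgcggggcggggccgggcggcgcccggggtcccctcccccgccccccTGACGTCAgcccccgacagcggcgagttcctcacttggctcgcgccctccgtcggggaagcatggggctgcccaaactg
The window held 1 such site, with 21 bases between its end and the gene's start. Of 32851 promoter windows of the same length, 588 (1.79%) held a TGACGTCA on either strand. Windows were also found for Pdgfra, Cspg4 and Des, and none of these 3 held the full site. The shorter core TGACG, searched on both strands, was present in 20.8% of all windows. Its 2 matches in Mcam both lie inside the full site, Pdgfra and Des had 1 match each and Cspg4 had 0. Also searched on both strands were the ATF4 site (CARE) and the endoplasmic reticulum stress element (ERSE). Neither had a match in the windows of Mcam, Pdgfra, Cspg4 and Des, beside 0.965% and 0.119% of all windows with a match. Windows for Pdgfrb and Thy1 were not used here. A match of letters is a description of the window and not evidence that a factor was bound.

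Pdgfrb encodes PDGFR-beta, the receptor tyrosine kinase by which mural cells answer PDGF-B and PDGF-D. Its log2 values were 9.49, 9.52 and 9.53 with thapsigargin plus forskolin, 9.10, 9.13 and 9.17 with thapsigargin alone, and 10.35, 10.39 and 10.35 with DMSO. Replicates lay close together, and the 3 groups were fully apart, with thapsigargin lowest, the combined group next and DMSO highest. The gene had a residual SD of 0.031 within groups, where the median over all genes was 0.105. Thapsigargin lowered it by 1.23 ± 0.05 on the log2 scale, a log2 difference of -1.23 (limma adjusted p = 8.12e-08). With forskolin added it was higher than with thapsigargin alone by 0.38 ± 0.05 (95% interval 0.27 to 0.49, limma adjusted p = 0.00143). It still differed from DMSO by -0.85 ± 0.05 (limma adjusted p = 8.44e-07), or 0.555 times the DMSO level. This order, lowest with thapsigargin, next with the combination and highest with DMSO, with all 3 comparisons called, was met by 333 genes, 1.5% of those tested. In cultured cells measured in bulk, fewer cells that express a gene and less RNA per cell cannot be told apart.

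Pdgfra encodes the related receptor PDGFR-alpha, which binds PDGF-A and PDGF-C and marks fibroblasts and mesenchymal progenitors. It had log2 values of 5.68, 5.64 and 5.49 in thapsigargin plus forskolin cells, 5.21, 5.64 and 5.48 in thapsigargin cells, and 5.55, 5.95 and 5.40 in DMSO cells. The groups overlapped, and the value exceeded the array median on 1 of 9 arrays. The log2 difference was -0.19 ± 0.15 for thapsigargin against DMSO (95% interval -0.53 to 0.15), 0.16 ± 0.15 for thapsigargin plus forskolin against thapsigargin (-0.18 to 0.50), and -0.03 ± 0.15 for thapsigargin plus forskolin against DMSO (-0.37 to 0.31). The fall of Pdgfrb under thapsigargin, 1.23, lies outside the interval of Pdgfra in the same comparison, though the difference between the 2 receptors was not tested. The signal of Pdgfra was low and its detection was not checked, so a fall of that size might not have been visible for it.

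Cspg4 encodes NG2, a large transmembrane chondroitin sulfate proteoglycan of pericytes that binds PDGF-A. Its values were 6.73, 6.58 and 6.46 with thapsigargin plus forskolin, 6.55, 6.77 and 6.51 with thapsigargin, and 6.82, 6.58 and 6.27 with DMSO. The DMSO arrays spread most (SD 0.277), and their range took in all values of the other groups. The 3 log2 differences lay within 0.06 of 0: 0.06 ± 0.14 for thapsigargin against DMSO, -0.02 ± 0.14 for thapsigargin plus forskolin against thapsigargin and 0.03 ± 0.14 for thapsigargin plus forskolin against DMSO. Their 95% intervals all lay between -0.33 and 0.37, so changes as large as those of Mcam were outside them.

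Des encodes desmin, the intermediate filament protein of muscle and mesangial cells. Its values were 5.97, 5.70 and 5.62 in thapsigargin plus forskolin cells, 5.65, 5.68 and 5.70 in thapsigargin cells, and 5.83, 5.70 and 5.70 in DMSO cells. The same value stood on 4 of the 9 arrays, and the signal exceeded the array median on 1. The differences did not pass, at -0.06 ± 0.09 for thapsigargin against DMSO, 0.08 ± 0.09 for the combined group against thapsigargin and 0.02 ± 0.09 for the combined group against DMSO. The interval for thapsigargin against DMSO ran from -0.26 to 0.13. The probe set that Des shares with another gene was left out by the rule, and no test of it is given here. It read 5.63, 5.40 and 5.37 with thapsigargin plus forskolin, 5.48, 5.56 and 5.44 with thapsigargin, and 5.85, 5.80 and 5.53 with DMSO.

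Thy1 encodes a small GPI-anchored glycoprotein of mesangial cells in the rat, and of T cells, neurons and fibroblasts in the mouse. Its values were 6.23, 6.20 and 5.89 with thapsigargin plus forskolin, 6.31, 6.28 and 6.29 with thapsigargin alone, and 6.27, 6.23 and 6.34 with DMSO. The 3 combined arrays lay below the 3 thapsigargin arrays, 1 of them well below, and they overlapped DMSO by a single equal value. This separation was not rare, since 14% of all genes had every combined array below every thapsigargin array. The difference of -0.18 ± 0.09 did not pass (95% interval -0.38 to 0.01, limma adjusted p = 0.304), nor did that of -0.17 ± 0.09 against DMSO (limma adjusted p = 0.173). Thapsigargin and DMSO cells differed by 0.01 ± 0.09. Without thapsigargin plus forskolin replicate 3, the low array, the difference from thapsigargin alone was -0.07.

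**Figure D2:**
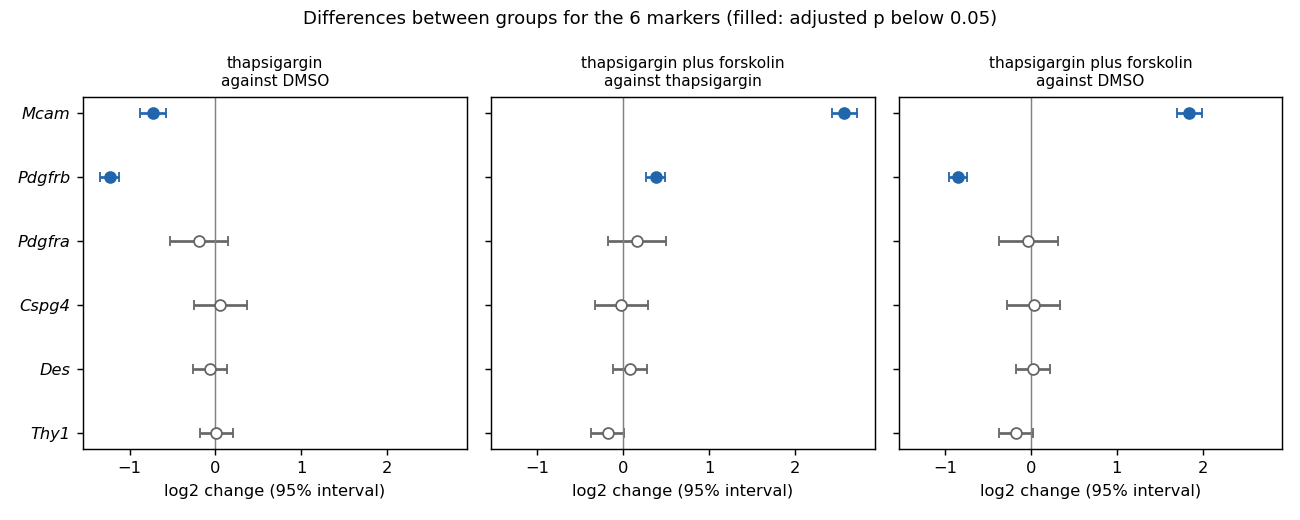
Log2 differences of the 6 markers (rows) in the 3 comparisons (panels), with 95% intervals from limma on 9 arrays; filled points have an adjusted p below 0.05. Mcam and Pdgfrb are filled in every panel, with opposite signs in the panel of thapsigargin plus forskolin against DMSO (1.85 and -0.85), and the intervals of the other 4 genes include 0.

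Of 7 genes for PDGF chains and the proteases that activate them, 6 were lower and 0 higher in thapsigargin than in DMSO cells. Of all genes, 16.9% were called lower and 18.2% higher. The median log2 difference of the 7 was -1.03 beside -0.04 over all genes. Pdgfd, a ligand of PDGFR-beta, had the largest fall of the PDGF chains in the list, with means of 7.02 in thapsigargin cells and 9.47 in DMSO cells (-2.46 ± 0.11, limma adjusted p = 2.04e-07). Pdgfb, the main ligand of mural cells, differed by -1.05 ± 0.06 (limma adjusted p = 1.01e-06). Plat, the protease tPA that activates PDGF-C, differed by -1.03 ± 0.06, and Plau, the protease uPA that can activate PDGF-D, by -2.87 ± 0.07. The member that did not pass was Pdgfc, at -0.12, named after its value was seen.

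With forskolin added, 2 of these 7 genes were higher and 2 lower than with thapsigargin alone, beside 3.7% and 4.17% of all genes. Their median was 0.03 beside -0.01 over all genes. Plau rose by 2.56 ± 0.07 (limma adjusted p = 1.81e-07) to a mean of 9.35, against 6.79 with thapsigargin alone. The 3 combined arrays carried the same Plau value, with an SD of 0. Pdgfb was lower still, at -0.91 ± 0.06 (limma adjusted p = 3.05e-05), and so was Plat, at -0.41 ± 0.06 (limma adjusted p = 0.00273). Pdgfd was higher by 0.46 ± 0.11 (limma adjusted p = 0.039), a call that was lost under 12 of 19 alternatives. All 7 genes were lower in thapsigargin plus forskolin than in DMSO cells, where 16.7% of all genes were called lower. The 2 ligand genes Pdgfd and Pdgfb thus differed in direction under forskolin. Pdgfd, like Pdgfrb, was higher than with thapsigargin alone, and Pdgfb was lower.

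Downstream of the receptors, 2 of 17 genes for adaptors, effectors and phosphatases were higher and 7 lower in thapsigargin than in DMSO cells. Of all genes, 18.2% were called higher and 16.9% lower. Lrp1, a co-receptor of PDGFR-beta, fell by 1.55 ± 0.08 on the log2 scale. Ptprj, a phosphatase that acts on PDGFR-beta, was lower (-1.01 ± 0.07), as was the docking protein gene Gab1 (-0.85 ± 0.05), while the phosphatase gene Ptpn2 was higher (0.99 ± 0.05, limma adjusted p = 5.93e-07). With forskolin added 1 of the 17, Ptprj, was called higher and 0 lower, beside 3.7% and 4.17% of all genes. Its difference was 0.31 ± 0.07 (limma adjusted p = 0.0194), and 6 of 19 alternatives lost that call. Among the 3 other class III receptor kinases, Csf1r, the receptor of the macrophage growth factor M-CSF, fell under thapsigargin, at -1.18 ± 0.12 against DMSO, and was higher by 0.82 ± 0.12 with forskolin added than with thapsigargin alone (limma adjusted p = 0.00297). Its difference between thapsigargin plus forskolin and DMSO cells was -0.35 ± 0.12 (limma adjusted p = 0.0492), a call lost under 11 of 19 alternatives. Kit and Flt3 were not called in any comparison.

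Of the other genes used to recognise mesangial cells and pericytes, 19 were measured. In thapsigargin cells 8 were lower and 0 higher than in DMSO cells (median -0.20), beside 16.9% and 18.2% of all genes. With forskolin added 1 was higher and 1 lower than with thapsigargin alone (median -0.03), beside 3.7% and 4.17% of all genes. Cd248, which encodes the pericyte surface protein endosialin, differed by -1.16 ± 0.10 under thapsigargin, and the angiopoietin genes Angpt2 and Angpt1 by -1.15 ± 0.12 and -0.97 ± 0.11, all 3 called. The signal of Angpt2 exceeded the lower quartile on 6 of the 9 arrays, and that of Angpt1 exceeded the array median on 2. With forskolin added Cd248, Angpt2 and Angpt1 were not called, at 0.08, 0.24 and -0.03 relative to thapsigargin alone. Akap12, which encodes an anchor of protein kinase A, differed by -0.78 ± 0.06 under thapsigargin and rose by 0.41 ± 0.06 with forskolin added (limma adjusted p = 0.00233). Tbx18, a transcription factor gene of mural cell precursors named after its value was seen, was the one called lower with forskolin, at -0.35 relative to thapsigargin alone. Rgs5, a widely used pericyte marker, had a mean of 4.77 in the combined group, 4.80 in thapsigargin cells and 4.92 in DMSO cells, close to the lower quartile of the arrays (4.53 to 4.59), and Higd1b lay below that quartile on all 9 arrays. Of the 19 genes, 10 exceeded the array median on every array.

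Contractile and filament genes are shared by mural cells and podocytes in culture. Of 9 smooth muscle and contractile genes 6 were lower in thapsigargin than in DMSO cells and 0 higher (median -0.75). The shares of all genes were 16.9% lower and 18.2% higher. With forskolin added 3 of the 9 fell further, 0 rose and 6 did not pass (median -0.03), where 4.17% of all genes were lower. Those that fell were Tagln (-1.18 ± 0.06), Acta2 (-1.16 ± 0.05) and Myl9 (-0.76 ± 0.13, limma adjusted p = 0.00575), which encode a calponin-like actin-binding protein, smooth muscle actin and a myosin light chain. Lmod1, which encodes an actin nucleator of smooth muscle, differed by -0.96 ± 0.10 under thapsigargin and by -0.02 with forskolin added. Of 7 filament and desmin partner genes, 4 were lower with thapsigargin and 3 with forskolin added, beside 16.9% and 4.17% of all genes. In both comparisons 0 of the 7 were higher, and their median with forskolin added was -0.10. Nes, which encodes nestin, a filament protein of podocytes, was lower with forskolin added (-1.43 ± 0.08, limma adjusted p = 6.16e-06), and so was Vim (-0.43 ± 0.05). Cryab, a chaperone of desmin, was lower under thapsigargin (-1.46 ± 0.06), as was Synm, which encodes a filament partner of desmin (-1.12 ± 0.07), while Des itself was not called.

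Relatives of Mcam in the immunoglobulin superfamily were mostly lower under thapsigargin, 5 of 8 with 0 higher (median -0.62). Under added forskolin 2 rose and 1 fell. The shares of all genes were 16.9% lower and 18.2% higher under thapsigargin, and 3.7% higher and 4.17% lower with forskolin added. Alcam (CD166), an adhesion molecule built like MCAM, took the same course as Mcam with a smaller change. Its mean was 9.79 in the combined group, 8.69 with thapsigargin and 9.32 with DMSO, which gave -0.63 ± 0.06 for thapsigargin against DMSO and 1.10 ± 0.06 for the combined group against thapsigargin (limma adjusted p = 7.27e-06). L1cam fell by 1.78 ± 0.05 under thapsigargin and rose by 0.68 ± 0.05 with forskolin added. Bcam, a laminin receptor, fell by 1.71 ± 0.08 and was not called with forskolin added (0.03 ± 0.08). Ntm was lower under thapsigargin (-0.95 ± 0.07) and lower again with forskolin added (-0.56 ± 0.07). The 3 thapsigargin arrays carried the same Ntm value, with an SD of 0. Of 5 proteoglycans related to NG2 in their sugar chains, 1 was called higher and 0 lower under thapsigargin, beside 18.2% and 16.9% of all genes. With forskolin added 0 were higher and 1 lower, beside 3.7% and 4.17%. Both calls were of Cspg5, at 0.41 ± 0.08 under thapsigargin and -0.36 ± 0.08 with forskolin added. The call with forskolin (limma adjusted p = 0.0268) was lost under 6 of 19 alternatives.

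**Figure D3:**
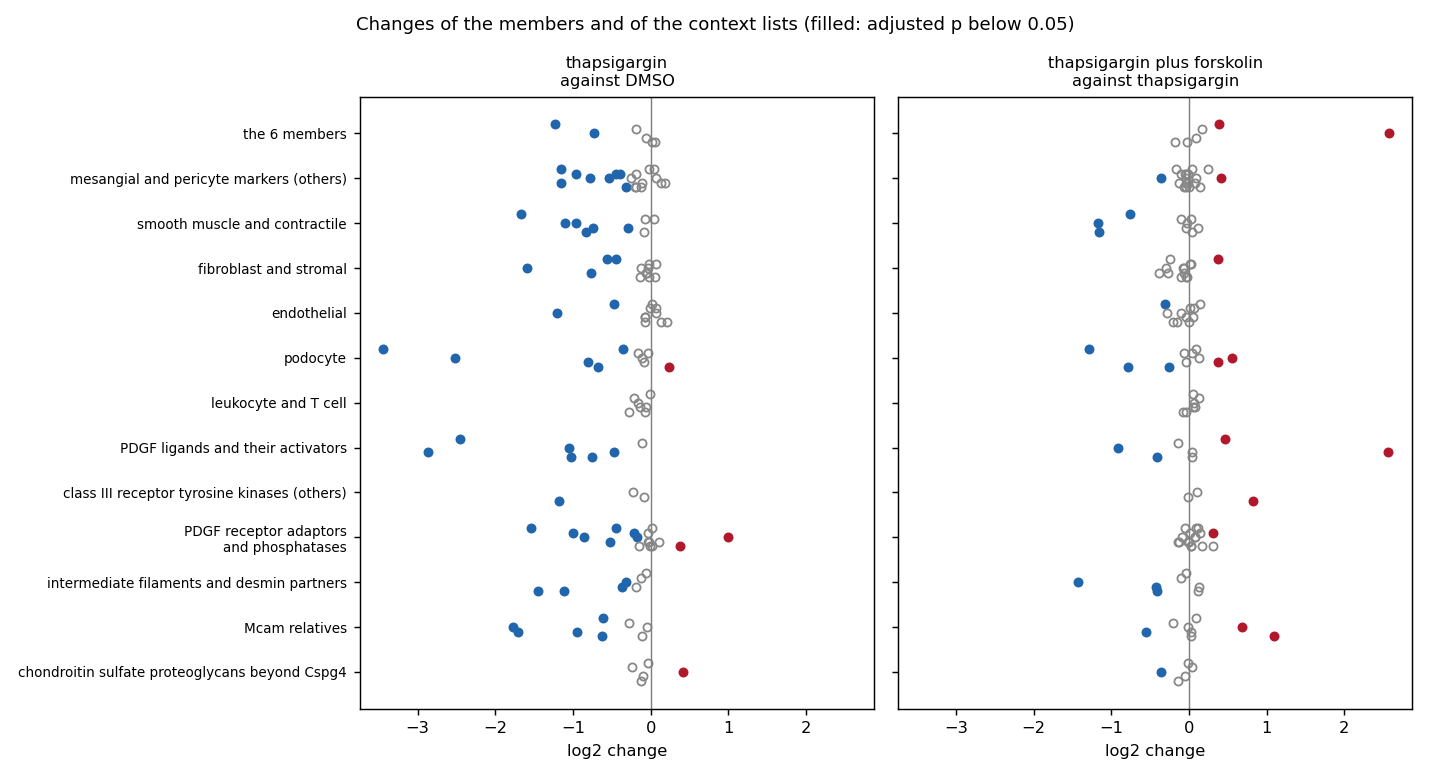
Log2 differences of single genes (points) in the list of the 6 members and in 12 lists of related genes (rows), for thapsigargin against DMSO (left) and thapsigargin plus forskolin against thapsigargin (right); filled points have an adjusted p below 0.05, red higher and blue lower, and vertical spacing within a row has no meaning. Most filled points on the left lie below 0, and on the right Mcam (2.58) and Plau (2.56) lie farthest to the right.

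Markers of the other cells that could carry these genes gave the following levels. The labelled cell type was checked on 10 podocyte genes, of which 8 exceeded the array median of all probe sets on every array, as did 8 of the 9 contractile genes, so this level does little to tell cell types apart. Cd2ap and Kirrel exceeded the upper quartile on all 9 arrays, Synpo on 3, and Wt1 and Nphs1 on 0. Tcf21 exceeded the median on 3 arrays and Ptpro on 0. Under thapsigargin 5 of the 10 were lower and 1 higher than in DMSO cells, beside 16.9% and 18.2% of all genes. Among the lower were Plce1 at -3.45 ± 0.08, Synpo at -2.52 ± 0.08, Kirrel at -0.80 ± 0.06 and Podxl at -0.67 ± 0.11. With forskolin added 2 of the 10 rose, Synpo (0.55 ± 0.08) and Kirrel (0.37 ± 0.06), and 3 fell, among them Plce1 (-1.29 ± 0.08) and Podxl (-0.79 ± 0.11). Of all genes, 3.7% were called higher and 4.17% lower in that comparison. The mean log2 value over the 10 genes ran from 7.33 to 7.36 on the combined arrays, from 7.45 to 7.48 on the thapsigargin arrays and from 8.25 to 8.28 on the DMSO arrays.

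Of 11 endothelial markers, 0 were higher and 1 lower with forskolin added, beside 3.7% and 4.17% of all genes. Under thapsigargin 0 of the 11 were higher and 2 lower, beside 18.2% and 16.9% of all genes. The part of endothelial markers in the values of Mcam was not tested. Their mean log2 value ran from 5.81 to 5.88 in the combined group, from 5.87 to 5.94 with thapsigargin and from 6.002 to 6.09 with DMSO. Of the 11, 3 exceeded the array median on every array, namely Kdr, Flt1 and Ehd3, and Ehd3 (mean 9.52) also exceeded the upper quartile on all 9. Emcn alone lay below the lower quartile on all 9 arrays. Pecam1 and Cdh5, which encode endothelial junction proteins, exceeded the array median on 1 and 4 arrays and were not called in any comparison. The call with forskolin was Flt1 (-0.32 ± 0.05). Those under thapsigargin were Ehd3 (-1.21 ± 0.07) and Tie1 (-0.47 ± 0.12, limma adjusted p = 0.0143, lost under 2 of 19 alternatives). The signal of Tie1 exceeded the array median on 2 arrays.

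Of 13 fibroblast and stromal markers 4 were lower and 0 higher under thapsigargin, beside 16.9% and 18.2% of all genes. The 4 were S100a4 at -1.59 ± 0.15, Postn at -0.77 ± 0.14, Dcn at -0.56 ± 0.06 and Nt5e at -0.44 ± 0.09. With forskolin added 1 of the 13, Dcn, was called higher (0.37 ± 0.06) and 0 lower, beside 3.7% and 4.17% of all genes. The signal of Dcn was low, above the lower quartile on 7 of the 9 arrays and above the array median on 0. Postn exceeded the array median on 1 array. Of the 13, 4 exceeded the array median on every array, namely Col1a1 (mean 7.66), Nt5e (6.59), Col1a2 (6.21) and Eng (6.17), and 1, Lum, was below the lower quartile on all arrays. The mean over the list ran from 5.56 to 5.64 in the combined group, from 5.66 to 5.73 with thapsigargin and from 5.96 to 6.003 with DMSO. Of 7 leukocyte and T cell markers, 0 were called by limma in any comparison. Of all genes, 35% were called for thapsigargin against DMSO, 7.87% for thapsigargin plus forskolin against thapsigargin and 34.5% for thapsigargin plus forskolin against DMSO. Cd3e, Cd2, Adgre1 and Itgam exceeded the array median on 0 arrays, which limits what could be seen for them. At an unadjusted limma p below 0.05 there were 0 for thapsigargin against DMSO and 0 for thapsigargin plus forskolin against thapsigargin. There were 2 for thapsigargin plus forskolin against DMSO, both lower (Itgam at -0.16 and Adgre1 at -0.32, named after their values were seen). The share of all genes at this unadjusted threshold was not counted. Cd68, a lysosomal protein gene high in macrophages, had a mean of 7.95 and exceeded the upper quartile on all 9 arrays, and it was the 1 gene of the list above the array median on every array. Ptprc, which encodes the pan-leukocyte protein CD45, was the 1 gene below the lower quartile on all 9. Cd68 and Cd4, with the highest means of the list, differed by 0.00 and -0.21 under thapsigargin and by 0.05 and 0.13 with forskolin added.

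The genes whose course over the 9 arrays was most like that of Mcam and Pdgfrb were found by the mean absolute difference of their log2 values after each gene was centred on its own mean. For Mcam these were Tcim (0.183), Nr4a1 (0.293), Il11 (0.417), Sod3 (0.422) and Pcsk5 (0.429), where the median over all named genes was 0.994. Tcim encodes a small transcriptional regulator, Nr4a1 a nuclear receptor, Il11 a cytokine, Sod3 an extracellular superoxide dismutase and Pcsk5 a proprotein convertase. All 5 were called higher with forskolin added than with thapsigargin alone, by 1.43 to 3.22. A rise like that of Mcam follows from their choice by likeness on these same arrays and is not separate evidence. Under thapsigargin alone Tcim, Nr4a1 and Pcsk5 were called lower than in DMSO cells, at -0.81, -0.69 and -0.55, and Il11 and Sod3 did not pass.

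For Pdgfrb the nearest genes were much closer. They were Eva1b (0.031), Sort1 (0.034), Fcgrt (0.040), Septin4 (0.043) and Fstl1 (0.043), where the median over all named genes was 0.455. Sort1 encodes the sorting receptor sortilin, Fcgrt the neonatal Fc receptor, Septin4 a septin of the cytoskeleton and Fstl1 a secreted glycoprotein. Their differences ran from -1.24 to -1.31 for thapsigargin against DMSO and from 0.38 to 0.45 for the combined group against thapsigargin, beside -1.23 and 0.38 for Pdgfrb. Such closeness likewise follows from how the genes were chosen.

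**Figure D4:**
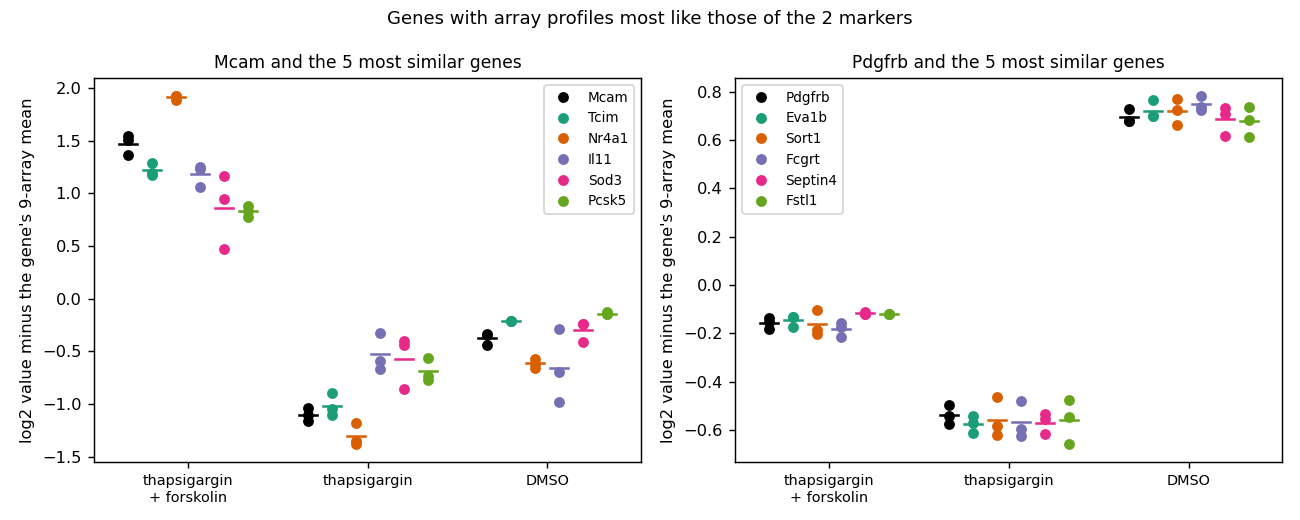
Log2 values centred on each gene's mean over the 9 arrays (vertical axis) for Mcam (left) and Pdgfrb (right) with the 5 genes most like each; points are arrays, short bars group means, and colours genes. On the left the combined group stands above the other groups for all 6 genes, and on the right DMSO is highest and thapsigargin lowest, with the group means of the 6 genes close together.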

How the data were processed

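The authors deposited a table of log2 values for 41345 probe sets on 9 arrays. They used affy and RMA, which corrects background, quantile-normalizes and summarises by median polish, per the submitters' processing notes. The sources used here give no versions and no genome build. Array distributions were made alike, so a change in total RNA cannot be seen, and detection was not checked because scanner files were not used here.

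Of the probe sets, 23521 carry 1 symbol, 1814 several and 16010 none; the highest mean per gene gave 22180 genes. Group means of all 9 arrays were fitted jointly (limma 3.58.1, R 4.3.3, 6 residual degrees of freedom, no covariate) with two-sided eBayes contrasts, which was tested on simulated data. Python 3.11.15 and matplotlib 3.10.9 drew the figures. Promoter windows and motif matches come from RefSeq sequences of GRCm38.p6.

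The rule for named genes took all 6 members, up to 4 called genes per list with the largest difference (or the 2 brightest), and the 5 nearest profiles of members called with an absolute log2 difference of at least 1, leaving out clone and predicted names. Members, the 12 lists, rule and alternatives were chosen with earlier results of these data known. Same-numbered replicates were not taken as paired, since their deviations from the group means correlated from -0.07 to 0.25 over 9 pairs of arrays. Of the 9 pairs 4 lay above 0.1, among them those of replicate 3 (0.21, 0.23 and 0.18). The values do not settle whether the numbers mark pairs. Alternatives were another fit, variance model, weights, scaling, filter, probe set rule, the replicate block and arrays left out. 8 genes of the lists were not analysed here.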

Additional observations from a re-analysis of the deposited data

How the results depend on the processing

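The calls of Mcam and Pdgfrb kept their direction and their side of the threshold in all 3 comparisons under all 19 alternatives. Mcam ran from -0.80 to -0.69 for thapsigargin against DMSO, from 2.54 to 2.63 for thapsigargin plus forskolin against thapsigargin and from 1.79 to 1.90 for thapsigargin plus forskolin against DMSO, and Pdgfrb from -1.29 to -1.19, from 0.35 to 0.40 and from -0.90 to -0.83. The other 4 genes were called under no alternative. Among genes above the median level Des and Pdgfra were left out and gave no value. Signs of differences near 0 turned when single arrays were left out. Cspg4 then ran from -0.087 to 0.19 for thapsigargin against DMSO, from -0.094 to 0.055 for thapsigargin plus forskolin against thapsigargin and from -0.11 to 0.16 for thapsigargin plus forskolin against DMSO. Des ran from -0.017 to 0.15 in the second of these and from -0.082 to 0.090 in the third, Pdgfra from -0.15 to 0.13 in the third, and Thy1 from -0.012 to 0.040 in the first. With DMSO replicate 1 and thapsigargin plus forskolin replicate 1 both left out, Des was at -0.017 against thapsigargin and -0.037 against DMSO. Over all genes, the count called lower with forskolin added was 924 and ran from 568 to 1101 with single arrays left out. It was 568 without replicate 3 of thapsigargin, 586 without replicate 1 of thapsigargin and 600 without replicate 2 of the combined group, with fewer arrays in the fit. With the replicate number as a block, Mcam was at -0.73 (limma adjusted p = 0.000123) and 2.58 (limma adjusted p = 6.97e-06) in the first and second comparison, and the block changed no call of the 6 genes; 5 of 9 arrays correlated best with an array of their own number. Named genes of the lists gave 2217 repeated results, which include results that had no call to lose. Among these 50 lost their call, 7 gained one and 0 of those called turned sign. Dcn and Csf1r against DMSO in the combined group lost their call under 12 of 18 and 11 of 19. The number of arrays and the low signal of Pdgfra and Des limit what could be seen.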
